A study of Rattus norvegicus with 2 samples.

Results

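The enzymes that attach ubiquitin to proteins and take it off again were followed in H9c2, a cardiomyoblast line established from rat embryonic heart tissue, by RNA sequencing of 1 library at each of 2 phosphate levels. Control cells were given 0.9 mM phosphate and high phosphate cells 2.5 mM, in both cases over 12 h without serum. Members were the rat protein-coding genes whose symbol starts with Uba and a digit, Ube2, Ube3, Ube4, Usp and a digit, Uchl or Otu, with a mean of at least 1 FPKM over both libraries. FPKM is the number of fragments of a gene per kilobase of transcript, relative to all mapped fragments. Of 134 such genes in the NCBI gene table, 50 were listed under a usable identifier and 32 of these reached the mean of 1 FPKM, out of 4366 genes that did so in all. The 84 others were not analysed here.

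Ubiquitin is first activated by an E1 enzyme, then handed to an E2 conjugating enzyme, and joined to its target with the help of an E3 ligase, which chooses the target. Deubiquitinases cut it off again and fall into families that include the USP, UCH and OTU proteases. Chains of ubiquitin mark proteins for the proteasome, steer the cell cycle and DNA repair, and control membrane traffic. In heart and skeletal muscle the same system turns over contractile proteins. SUMO, NEDD8, UFM1 and ISG15 are small relatives of ubiquitin with E1 and E2 enzymes of their own.

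Libraries were compared by the log2 ratio, which is log2 of (FPKM + 1) at 2.5 mM over (FPKM + 1) at 0.9 mM phosphate, and a gene was counted as higher or lower from 1.5-fold on this scale. The added 1 shrinks the ratio where FPKM is low. Neither condition had a replicate, so no value has an error, no test was possible and every difference is a difference between these libraries. The number of reads behind each FPKM is unknown. A lower value in a culture can come from fewer cells of a kind or from less RNA per cell, which cannot be told apart here. Of 12 muscle lineage markers 7 were listed, among them desmin (Des) at 128.5 FPKM under control and 153.3 FPKM under high phosphate, whereas Myog was listed at 0.13 and 0.06 FPKM. Of the 5 measured ones, 2 were past 1.5-fold, in opposite directions: the myogenic factor Myod1 had 6.11 and 1.59 FPKM (log2 ratio -1.46) and smooth muscle actin Acta2 1646.88 and 2651.47 FPKM (log2 ratio 0.69). Of 7 markers of other cells 5 were listed: Ptprc, Pecam1 and Epcam stood at 0.22 FPKM or less in both libraries and Cd68 at 1.06 and 1.38 FPKM, while the keratin Krt8 was listed at 139.7 and 246.57 FPKM. The part of these marker differences in the results below was not tested.

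Most members were listed at similar levels in both libraries. Of the 32 members 28 stayed within 1.5-fold, and 4 were past it: the cell cycle E2 Ube2c and the DNA repair E2 Ube2t were higher in high phosphate, and the ubiquitin E1 Uba1 and the deubiquitinase Usp24 were lower. The 2 higher members compare with 7.21% of all 4366 genes at least 1.5-fold higher, and the 2 lower members with 3.37% at least 1.5-fold lower. In both directions together 12.5% of the members and 10.6% of all genes were past 1.5-fold, so the share of members that differed lay near the background. At 2-fold no member was higher, where 1.76% of all genes were, and Uba1 alone was lower, where 0.870% of all genes were. The median log2 ratio of the members was -0.04, beside 0.00 for all genes.

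**Figure D1:**
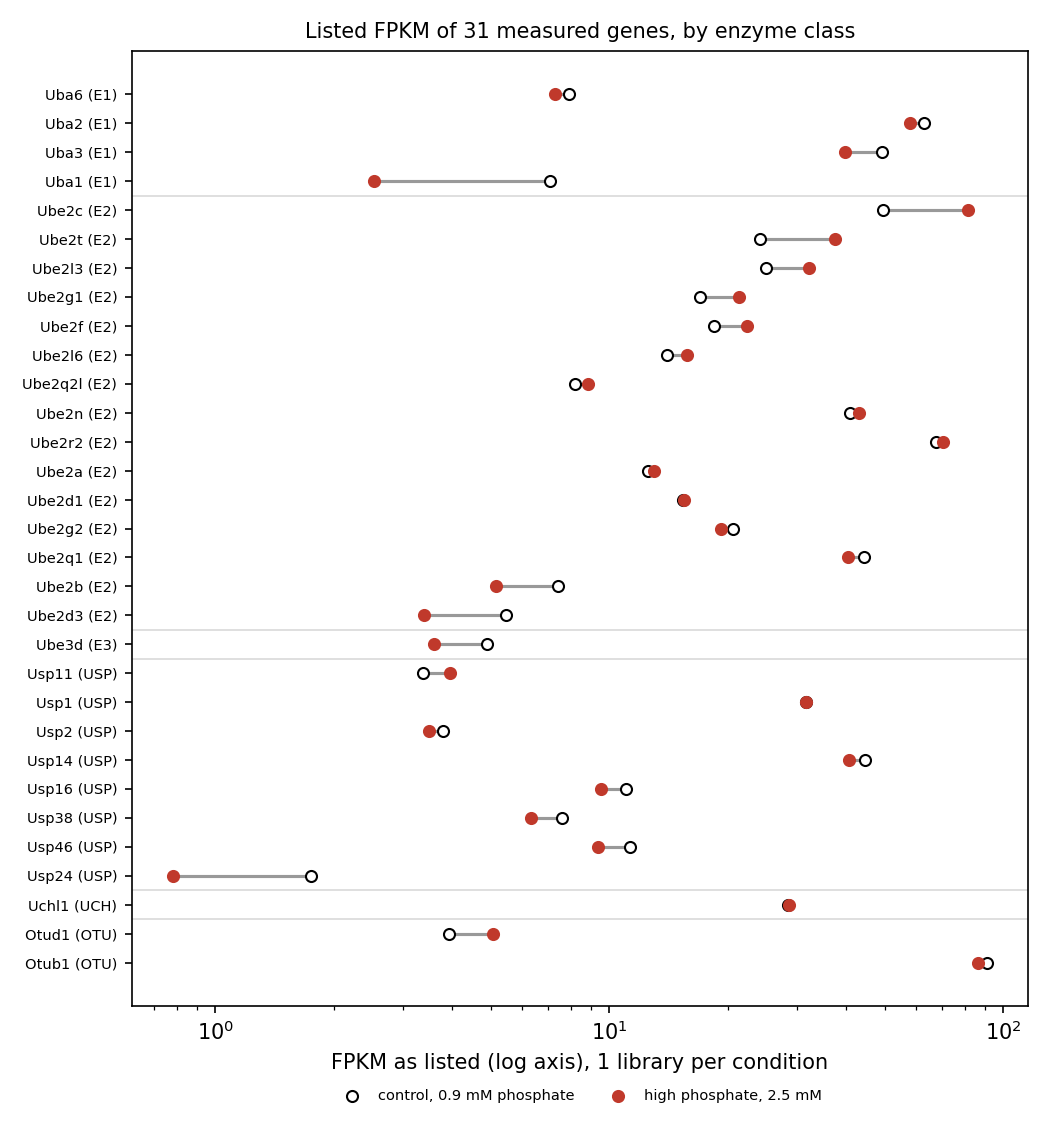
Listed FPKM of 31 of the 32 measured genes on a log axis, 1 row per gene and grouped by enzyme class, with an open circle for the control library and a filled circle for the high phosphate library. The widest gaps are those of Uba1 (7.08 and 2.53 FPKM) and Usp24 (1.75 and 0.78 FPKM), while Usp1, Uchl1 and Ube2d1 nearly coincide.

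The sequences upstream of 2 of the 4 differing genes are shown, Ube2t as a higher and Uba1 as a lower one, chosen by these values. The promoter table used here has no entry for Ube2c or Usp24. Each run is the 250 bases before the annotated start, 5′ to 3′ on the strand of the gene, from RefSeq on build GRCr8, whereas the FPKM values rest on Rnor_6.0. Ube2t lies on the plus strand at chr13:48954916-48955165 and Uba1 on the minus strand at chrX:4080690-4080939. Capitals mark the CCAAT box (CCAAT), a motif frequent in cell cycle promoters, and the core of the hypoxia response element (ACGTG or GCGTG), each searched on both strands.
Ube2t: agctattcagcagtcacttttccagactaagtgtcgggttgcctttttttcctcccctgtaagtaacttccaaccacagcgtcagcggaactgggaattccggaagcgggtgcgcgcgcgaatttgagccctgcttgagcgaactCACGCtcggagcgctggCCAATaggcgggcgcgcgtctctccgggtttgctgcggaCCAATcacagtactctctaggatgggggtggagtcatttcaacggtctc
Uba1: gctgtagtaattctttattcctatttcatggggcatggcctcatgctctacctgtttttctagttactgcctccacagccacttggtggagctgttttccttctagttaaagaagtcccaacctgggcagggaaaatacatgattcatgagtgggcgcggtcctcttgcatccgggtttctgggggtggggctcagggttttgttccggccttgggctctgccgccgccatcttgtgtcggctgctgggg

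The Ube2t window held 2 CCAAT boxes and 1 hypoxia core, and the Uba1 window held neither set of letters. At least 1 CCAAT box was present in 11385 of all 33469 windows of this length in the table, and 2 or more in 9.4%. Of the 26 members with a window, 7 held a CCAAT box, which is 26.9%, beside 37.4% of the 3770 windows of all measured genes. The hypoxia core was present in 15 of the 26 members, or 57.7%, beside 59.0% of the windows of measured genes and 36.7% of all windows. Members with the hypoxia core had a median log2 ratio of -0.07 and the 11 without it one of -0.10. For the CCAAT box the medians were 0.16 in the 7 members with it and -0.12 in the 19 without. The 7 include Ube2t, shown because it was higher, and the same split was not made over all measured genes. Whether the box goes with higher values was not tested. The cell cycle homology region (TTTGAA or TTCGAA), another element of mitotic promoters, was present in 4 members, namely Uba2, Ube2f, Usp14 and Usp16, and in 12.6% of the windows of measured genes; these 4 had a median log2 ratio of -0.12 and the 22 others one of -0.04. A match of letters describes the window and is not a measured binding site.

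The 4 measured E1 genes with a Uba symbol were listed lower in high phosphate, where 49.4% of all measured genes had a log2 ratio below 0. Uba1 had the lowest log2 ratio of the 4 E1 genes. Uba1, which starts the cascade for most of the cell's ubiquitin, was listed at 7.08 FPKM under control and 2.53 FPKM under high phosphate. That is a 2.80-fold lower FPKM and a log2 ratio of -1.19, the 27th lowest among the 4366 genes. Uba6, the other E1 that can activate ubiquitin, was listed at 7.93 and 7.3 FPKM. The ubiquitin E1 enzymes were thus close to each other in the control library, and Uba1 stood well under Uba6 in the high phosphate library. Uba1 has a mean of 4.81 FPKM, and below a mean of 5 FPKM 6.72% of 1146 genes were at least 1.5-fold lower, a larger share than over all genes. Uba2, the catalytic subunit of the SUMO E1, was listed at 62.98 and 58.06 FPKM, while its partner subunit Sae1, which is outside the symbol rule, was higher with 69.86 and 77.26 FPKM. Uba3, the catalytic subunit of the NEDD8 E1, had 49.22 and 39.72 FPKM. The log2 ratios of Uba6, Uba2 and Uba3 were -0.11, -0.12 and -0.30, all inside 1.5-fold. The median of the 4 E1 genes was -0.21. Uba7, the E1 for ISG15, was listed at 0.11 and 0 FPKM and was not among the members.

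Uba1 sits on the X chromosome in a short run of genes that also holds a deubiquitinase of the set. In the order of protein-coding genes in GRCr8, Cdk16 lies between Usp11 and Uba1, and Rbm10 and then Ndufb11 follow on the other side. Usp11 was listed at 3.36 FPKM under control and 3.95 FPKM under high phosphate, Rbm10, an RNA-binding splicing regulator, at 22.87 and 20.92 FPKM, and Ndufb11, a subunit of respiratory complex I, at 104.25 and 123.57 FPKM. These 3 neighbours each stayed within 1.5-fold, while Cdk16, directly beside Uba1, was not listed under a usable identifier and has no value here. The gene table also lists Uba1y, a related gene, which was not analysed here, and the sources used here do not say how reads shared by related genes were assigned.

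As deposited, more E2 genes were listed higher than lower in high phosphate. Of 15 measured E2 genes 11 had a log2 ratio above 0 and 4 below 0, where 50.5% of all measured genes stood above 0. The class median was 0.08, and their listed FPKM summed to 370.09 in the control and 429.71 in high phosphate. Ube2c and Ube2t made up most of this gain. Ube2c, the E2 that works with the anaphase-promoting complex to mark mitotic proteins for destruction, was listed at 49.41 and 81.49 FPKM. Its log2 ratio was 0.71, the 212th highest among the 4366 genes, and among the members it passed Uba2 and Ube2r2. Ube2t, the E2 of the Fanconi anaemia pathway for repair of DNA crosslinks, was listed at 24.18 and 37.52 FPKM, with a log2 ratio of 0.61. Both had a mean above 10 FPKM, where 5.33% of 2550 genes were at least 1.5-fold higher. With FPKM rescaled to an equal sum in both libraries, Ube2c and Ube2t stayed above 0 but fell under 1.5-fold, with log2 ratios of 0.54 and 0.44, and the median of all genes moved to -0.15. In that rescaling 10 of the 15 E2 genes stood above the median of all genes, a position that a common rescaling can hardly alter. Only 5 of the 15 stood above 0, with a class median of -0.09. With the sum taken without the 100 most abundant entries, 7 of the 15 stood above 0. The 4 E1 genes stayed below 0 under both pseudocounts and all 4 rescalings tried, which could not have come out otherwise. A pseudocount keeps the sign of a log2 ratio, and all 4 rescalings made the high phosphate values smaller.

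**Figure D2:**
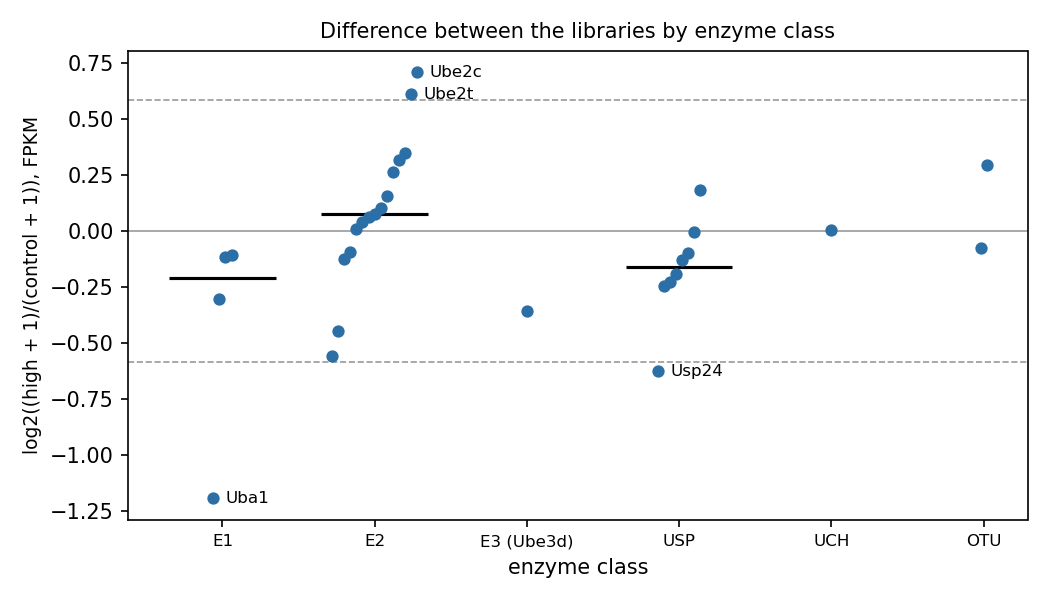
The log2 ratio of FPKM + 1 (high phosphate over control) of 31 of the 32 measured genes, 1 point per gene, by enzyme class; black lines are class medians where a class has at least 4 genes, and dashed lines mark 1.5-fold. Ube2c and Ube2t lie above the upper dashed line, Usp24 and Uba1 below the lower one, and 7 of 8 USP points lie below 0.

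The other E2 genes with a higher value differed by less than 1.5-fold. Ube2l3, which serves HECT and RBR ligases such as parkin, was listed at 25.04 FPKM under control and 32.18 FPKM under high phosphate. Ube2g1, an E2 of protein degradation at the endoplasmic reticulum, had 16.96 and 21.41 FPKM, and its relative Ube2g2 20.57 and 19.22 FPKM. The pair therefore stood in the order Ube2g2 over Ube2g1 in the control and in the opposite order in high phosphate. Ube2f, a NEDD8 E2, was listed at 18.42 and 22.33 FPKM, while its E1 subunit Uba3 was lower. Ube2l6, the E2 for ISG15, had 14 and 15.72 FPKM, although ISG15 itself (Isg15) was listed at only 0.37 and 0.54 FPKM. The most abundant E2 genes apart from Ube2c were close between the libraries: Ube2r2, a CDC34-type E2 of cullin ligases, had 67.43 and 70.41 FPKM, Ube2q1 44.21 and 40.41 FPKM, and Ube2n, which builds lysine-63-linked chains, 40.88 and 43.14 FPKM. Ube2q2l was listed at 8.17 and 8.86 FPKM.

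In the pairs of close E2 relatives below, 1 gene was nearly level and the other lower, all inside 1.5-fold with the added 1. Ube2a and Ube2b encode near-identical proteins that act in DNA damage tolerance and histone ubiquitination. Ube2a was listed at 12.57 FPKM under control and 12.97 FPKM under high phosphate, whereas Ube2b was listed at 7.41 and 5.17 FPKM. Ube2d1 and Ube2d3 belong to the family of general-purpose E2 enzymes that work with many ligases. Ube2d1 had 15.37 and 15.49 FPKM, while Ube2d3 had 5.47 and 3.39 FPKM and the lowest log2 ratio of the E2 class, -0.56. In FPKM without the added 1 Ube2d3 was 1.61-fold lower, and it was past 1.5-fold with a pseudocount of 0.1 or 0.5. Each lower gene was the less abundant of its pair. Ube2d3 has a mean of 4.43 FPKM, and below a mean of 5 FPKM 6.72% of genes were at least 1.5-fold lower, beside 3.37% of all genes. The gene table lists 9 pseudogenes named after Ube2n, 4 after Ube2c and 3 after Ube2l3. Whether they share reads with these genes was not tested.

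The partners of Ube2c were examined with a list written after its value was seen. It held 17 genes of the anaphase-promoting complex, its activators and its inhibitor, of which 10 were measured. Of these 8 had a log2 ratio above 0, where 50.5% of all measured genes did, with a median of 0.16. Cdc20 was the 1 gene past 1.5-fold: this mitotic activator was listed at 50.14 FPKM under control and 86.67 FPKM under high phosphate, close to the levels of Ube2c in each library. The second activator, Fzr1, had 35.41 and 44.18 FPKM, and the inhibitor Fbxo5 11.53 and 14.81 FPKM. All 7 measured subunits of the complex stayed within 1.5-fold, from Cdc23 with 3.21 and 2.79 FPKM to Anapc13 with 32.66 and 44.16 FPKM, and their median log2 ratio was 0.09. Of 10 genes written as partners of Ube2t only 3 were measured, and each stayed within 1.5-fold. Fancd2, which Ube2t helps to ubiquitinate, was listed at 10.5 and 12.09 FPKM, and Fanca at 3.49 and 2.72 FPKM. Usp1, the deubiquitinase that removes ubiquitin from Fancd2, was listed at 31.58 and 31.53 FPKM, and its cofactor Wdr48 at 11.26 and 10.24 FPKM. Ube2t was therefore below Usp1 in the control and above it in high phosphate.

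**Figure D3:**
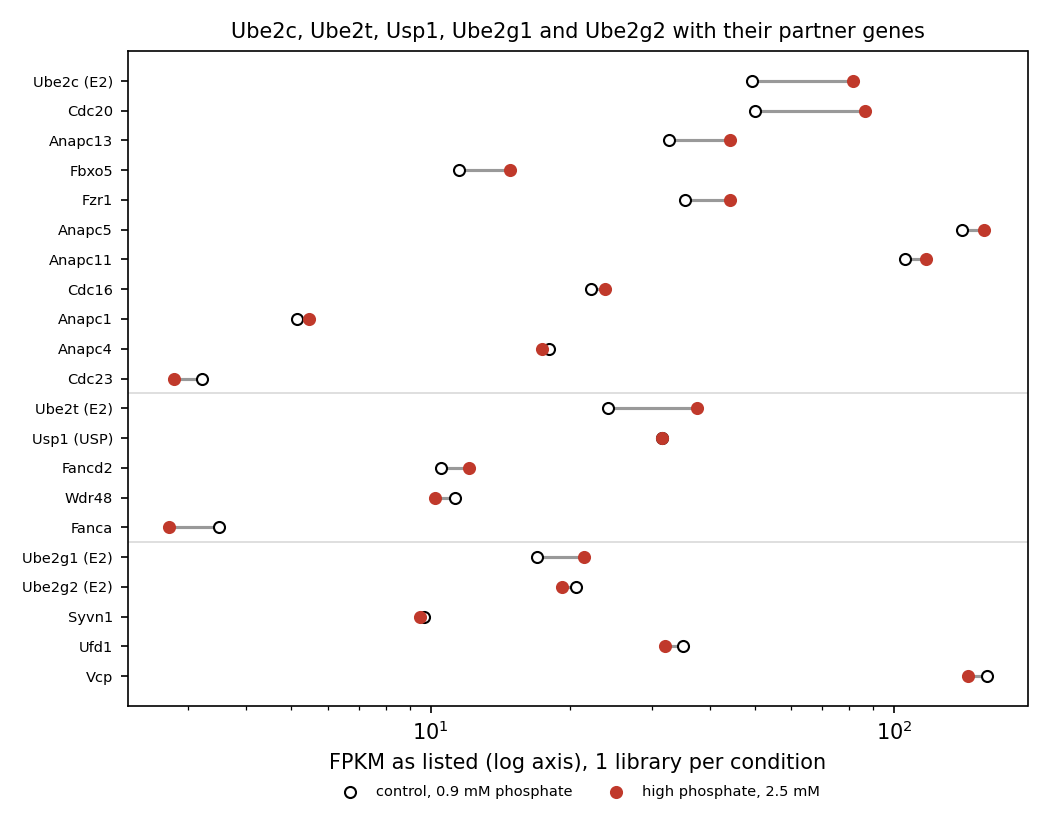
Listed FPKM on a log axis for Ube2c with the anaphase-promoting complex, Ube2t and Usp1 with Fanconi pathway genes, and Ube2g1 and Ube2g2 with genes of degradation at the endoplasmic reticulum; open circles are the control and filled circles the high phosphate library. Ube2c and Cdc20 span nearly the same interval, while Usp1 stays in place beside a higher Ube2t.

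Around Ube2g1 and Ube2g2, the ligase Syvn1 was listed at 9.66 FPKM under control and 9.47 FPKM under high phosphate. Vcp, the ATPase that pulls marked proteins out of the membrane, had 158.39 and 144.73 FPKM, and its cofactor Ufd1 35.11 and 32.1 FPKM. All 3 were slightly lower, with log2 ratios from -0.13 to -0.03, beside the higher Ube2g1.

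On the removing side, USP genes were mostly listed lower by small amounts. Of 8 measured USP genes 7 had a log2 ratio below 0, where 49.4% of all measured genes did, with a median of -0.16. Under the pseudocounts of 0.1 and 0.5 and the 4 rescalings 7 of 8 also stood below the median of all genes. These changes keep the sign of each ratio or shift all genes nearly alike, so this position could hardly change. Of the 8 listed USP genes under a mean of 1 FPKM 5 had a log2 ratio above 0, and with them the class median was -0.0011. From a mean of 5 FPKM the USP median was -0.19, so the imbalance of the USP genes depends on the limit on low values. The genes under 1 FPKM lie where the added 1 shrinks the ratio. Usp24, a large USP protease, was listed at 1.75 FPKM under control and 0.78 FPKM under high phosphate, a log2 ratio of -0.63 at the lowest level of any member. Usp14, which trims chains at the proteasome, had 44.66 and 40.7 FPKM. Usp46 had 11.28 and 9.36 FPKM, Usp16, a histone deubiquitinase, 11.03 and 9.52 FPKM, and Usp38 7.57 and 6.32 FPKM. Usp2 had 3.79 and 3.48 FPKM and Usp1 was level, so that the 6 USP genes other than Usp24 with a value below 0 lay between -0.25 and 0.00. Usp11, a deubiquitinase linked to TGF-beta signalling, was the 1 USP gene above 0, with a log2 ratio of 0.18.

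The other protease families had few measured genes. Otub1, an OTU protease that also restrains the E2 Ube2n by binding it, was the most abundant member in both libraries at 90.87 and 86.24 FPKM. It stood above Ube2n in both. Otud1 was listed at 3.93 and 5.06 FPKM, and its log2 ratio of 0.30 was the highest of the 11 measured USP, UCH and OTU genes. Uchl1, a ubiquitin hydrolase best known from neurons, had 28.51 and 28.63 FPKM. Across these 11 deubiquitinases the median log2 ratio was -0.10 with 3 genes above 0, and across the 20 measured E1, E2 and E3 genes it was 0.03 with 11 above 0. The difference between these medians is small beside the spread within each side, which ran from -0.63 to 0.30 for the deubiquitinases and from -1.19 to 0.71 for the conjugating enzymes. Ube3d, an E3 ligase and the 1 measured gene of the Ube3 and Ube4 symbols, was listed at 4.89 and 3.6 FPKM.

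Of the 50 listed genes 18 had a mean under 1 FPKM. Just inside the limit was Usp24 with a mean of 1.27 FPKM, and just outside were Otud7b and Usp37, with means of 0.745 and 0.665 FPKM. Otud7b, an OTU protease of NF-kB signalling, was listed at 0.04 and 1.45 FPKM, and Usp37, a deubiquitinase of the cell cycle, at 0 and 1.33 FPKM. Both would count as higher without the limit, as would Ube4a, listed at 0 and 0.64 FPKM, and Usp28, listed at 0.12 and 0.69 FPKM, whereas Usp20, listed at 0.53 and 0 FPKM, would count as lower. Usp19 and Otud5 were listed at 0 in both libraries. Ube2v2, a partner that Ube2n uses to build chains, was listed at 0.23 and 0.09 FPKM, and the endosomal protease Usp8 at 0 and 0.22 FPKM. Genes in wide use were thus listed near 0, where a value can also be a failed estimate, so these values are given only as listed. Also listed under the limit were Ube2j2, Ube2u, Usp26, Usp53, Usp54, Uchl3, Otud6a and Uba7, all at 0.58 FPKM or less in each library.

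Genes of the small relatives of ubiquitin and their E2 enzymes differed little between the libraries. Nedd8 was listed at 124.91 FPKM under control and 137.77 FPKM under high phosphate, and Ufm1 at 18.21 and 19.15 FPKM. Sumo3 was lower, with 163.48 and 120.81 FPKM, and so was Ufc1, the UFM1 E2, with 79.55 and 60.13 FPKM. All 7 measured genes of the list of modifiers stayed within 1.5-fold.

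Other genes of the pathway came from lists of modifiers, further deubiquitinases and ligases written with earlier results known. Outside the members, 47 of 132 such genes were measured, 2 of them were at least 1.5-fold higher and none lower, which is 4.3% against 10.6% of all genes. The 2 were Cblb, a ligase that dampens receptor signalling, with 0.89 and 2.63 FPKM, and the Josephin-family protease gene Josd2, with 0.61 and 1.62 FPKM, both under 1 FPKM in the control. Their listed FPKM were more than 2-fold apart, but with the added 1 no gene of these lists was. The ligase gene Birc3, listed at 1.37 and 0.28 FPKM, had a mean of 0.825 FPKM and so was not measured. Without the limit it would count as lower, with a log2 ratio of -0.89. Nedd4, the founding HECT ligase of its family and the most abundant of the HECT and RBR list, had 201.65 and 269.32 FPKM. Vhl, the subunit that recognises hydroxylated HIF, had 12.75 and 18.48 FPKM, and Cul1, the scaffold of the SCF ligases, 1.58 and 2.63 FPKM. Other genes of these lists were lower: Rnf168 had 5.68 and 3.92 FPKM, Rnf4 5.04 and 3.53, Senp3 31.22 and 23.34, and Fbxw7 1.93 and 1.34. Of the 47 genes 25 had a log2 ratio above 0 and 22 below 0, with a median of 0.01. Skp1 and Rbx1, shared cullin ligase subunits, had 270.89 and 298.4 FPKM and 127.35 and 134.29 FPKM. Stub1, the ligase that works with chaperones, was level at 87.85 and 88.56 FPKM, and the proteasomal deubiquitinase Psmd14 had 70.84 and 66.89 FPKM.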

How the data were processed

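FPKM values were made by the authors and deposited with 2 decimals, per the file headers. Tools in the submitters' processing notes were Cufflinks 2.2.1, Cuffdiff, TopHat2 2.1.1 and bcl2fastq, with build Rnor_6.0. For the role of each tool, the annotation, the strand setting and the scaling between libraries, the sources used here give nothing. Of 8039 entries per file 236 had no usable identifier and were left out, and 7746 of the other 7803 matched a symbol in the NCBI table for GRCr8. Log2 ratios used a pseudocount of 1 and a mean of at least 1 FPKM (4366 genes), on values as deposited. With 1 library per condition no test was made. Named were all E1, E3, UCH and OTU genes, the 5 highest, 5 lowest and 5 most abundant E2 and USP genes, members past 1.5-fold, and the ISG15, SUMO, NEDD8 and UFM1 enzymes. Some genes that this rule selects are counted but not reported here. Genes named from the other lists, and partner genes, were chosen after their values were seen. The members and lists were chosen with earlier results of these data known. The calculation was tested on simulated data with known folds and a set noise level, which checks the arithmetic and not how reliable a difference between single libraries is. Alternatives were 2 pseudocounts, 4 rescalings, 3 filters, a 2-fold rule and 1 other set of members. Python 3.11.15, numpy 2.4.6, pandas 2.3.3 and matplotlib 3.10.9 were used.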

Additional observations from a re-analysis of the deposited data

How the results depend on the processing

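Rescaling to the same sum, which divided the high phosphate values by 1.13, moved the most values: no member was then higher and 4 were lower (Uba1, Usp24, Ube2d3 and Ube2b), and the medians were -0.38 for E1, -0.0932 for E2, -0.32 for USP, -0.13 for the conjugating side, -0.25 for the deubiquitinases and -0.20 for all members, with all genes at -0.15. Without the 100 most abundant entries in the sum, 1 member was higher, and the medians were -0.0098 for E2 and -0.0555 for the conjugating side. Without the filter on low values 6 genes were higher, and the medians were -0.0011 for USP, 0 for the deubiquitinases and 0.0029 for all members. From a mean of 5 FPKM no member was lower, since Uba1 and Usp24 left the set, and the median of all members was 0.0059. With at least 1 FPKM in each library 1 member was lower. The 2-fold rule left 0 higher and 1 lower. Without the enzymes of other modifiers the E1 median was -0.65, over Uba1 and Uba6 only. Both pseudocounts and the rescalings to the same median ratio and upper quartile kept each count within 1.5 times and each median within 0.1. No paired analysis was possible because each condition had 1 library. The unknown depth limits the low values most, those of Uba1 and Usp24 included.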
